A study of Rattus norvegicus with 9 samples.

Results

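Tendon, cartilage and bone are marked by a small set of genes, and 10 of them were followed here in a skeletal muscle of the rat pelvic floor, the pubococcygeus. The 10 were a list of symbols (Scx, Tnmd, Mkx, Acan, Ibsp, Sox9, Comp, Bglap, Spp1 and Chad), and each matched 1 row of the 30518 rows of the gene table. They comprise 3 tendon markers, 4 cartilage markers and 3 bone markers. RNA sequencing was done on 9 libraries, 3 from each of 3 groups of 8 female Sprague-Dawley rats, 24 in all. Their age is not stated in the labels.

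In the stimulated group both ovaries were removed and the vagina was distended, a model of stress urinary incontinence (SUI), and transvaginal pelvic floor electrical stimulation began 1 week later. The pulses were monophasic square waves of 200 µs at 50 Hz and 20 mA, given for 30 min a day on 5 days a week for 2 weeks. In the SUI group the same ovary removal and distension were done and nothing followed. Distension in both of these groups was by an 8 Fr Foley balloon holding 3 mL saline, from which a weight of 120 g hung for 4 h. The blank group had neither surgery nor stimulation, and no group here had a sham operation or sham stimulation, although the library names call the SUI libraries sham. Libraries carry a number and no link to single rats, so the p-values speak to variation among libraries, which may be technical in part.

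As background, tendon cells are specified by the transcription factors scleraxis (Scx) and mohawk (Mkx), and their mature form is marked by the membrane glycoprotein tenomodulin (Tnmd). Cartilage cells depend on the transcription factor Sox9 and lay down a matrix of aggrecan (Acan), cartilage oligomeric matrix protein (Comp) and chondroadherin (Chad); Comp is also made in tendon. Bone-forming cells secrete bone sialoprotein (Ibsp), osteocalcin (Bglap) and osteopontin (Spp1), and Spp1 is made by macrophages too. Muscle fibres meet tendon at the myotendinous junction and tendon meets bone through fibrocartilage at the enthesis, so a dissected muscle can carry small pieces of each.

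The promoters of the 3 bone markers are shown because, for all 3, each stimulated library lay below each blank library. The same held for 4.72% of all genes tested. Ibsp and Bglap passed the filter on low values, described below, without any stimulated library. The choice is thus one of display, and nothing is read from it. The RefSeq promoter table (GRCr8) held 8 of the 10 markers; Scx and Sox9 are named only. Each line gives the 250 bases before the annotated start on the gene's own strand, from 5′ to 3′. Capitals mark ACCACA, an exact form of the letters bound by RUNX factors, and TATAAA, the letters of a TATA box. Both are marked on either strand (TGTGGT and TTTATA when on the other strand). Other forms of the RUNX letters were not sought, so a promoter without ACCACA may still hold one.
Ibsp (chr14:5757243-5757492, minus strand): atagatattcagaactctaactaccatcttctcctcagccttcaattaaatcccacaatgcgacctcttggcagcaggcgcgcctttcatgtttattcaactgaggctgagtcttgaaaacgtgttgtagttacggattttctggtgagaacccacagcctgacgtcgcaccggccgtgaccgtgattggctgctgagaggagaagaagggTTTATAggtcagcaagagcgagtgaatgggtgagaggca
Bglap (chr2:176137319-176137568, minus strand): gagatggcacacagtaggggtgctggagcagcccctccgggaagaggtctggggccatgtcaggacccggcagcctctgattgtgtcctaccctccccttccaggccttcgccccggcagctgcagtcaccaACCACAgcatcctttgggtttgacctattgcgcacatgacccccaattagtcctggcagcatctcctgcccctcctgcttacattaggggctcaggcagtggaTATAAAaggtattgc
Spp1 (chr14:5619805-5620054, minus strand): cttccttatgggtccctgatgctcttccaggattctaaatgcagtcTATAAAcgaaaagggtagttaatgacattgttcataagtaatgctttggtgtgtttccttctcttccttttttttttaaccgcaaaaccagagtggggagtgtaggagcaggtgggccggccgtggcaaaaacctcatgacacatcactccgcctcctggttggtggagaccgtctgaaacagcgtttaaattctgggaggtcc

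Bglap held ACCACA, 118 bases before the start, and the other 2 did not hold it in this window. TATAAA letters lay 39 bases before the start in Ibsp, 15 in Bglap and 204 in Spp1. Of all 33469 promoters in the table, 14.5% held ACCACA and 12.9% held TATAAA in a window of the same length. The E-box letters CANNTG, in lower case above, occurred once in Ibsp and Spp1 and at 2 places in Bglap, and in 65.5% of all promoters. AACAAT, the letters bound by SOX factors, occurred in Spp1 among the 8 and in 10.3% of all promoters. Over the 8 markers found, CANNTG was held by 5, ACCACA by 1, AACAAT by 1 and TATAAA by 4. No match overlapped another in the 3 promoters shown, and a match describes letters in a window and no more.

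Library totals ran between 50833480 and 147650284 counts, with a median of 110699836. Blank replicate 1 stood apart: it had the lowest total, 32.9% of its counts came from mitochondrial genes against 13.4 to 17.7% in the other 8 libraries, and its median correlation with the others over log2 CPM was 0.920. SUI replicate 1 had 0.949, and the other 7 had 0.954 to 0.968. Short genes were also low in blank replicate 1, where the shortest genes had a median of -0.456 log2 units from their means, against -0.0824 to 0.133 in the others. The 9 libraries carry 1 batch label. Levels below are CPM, counts scaled to a common library total after adjustment by the trimmed mean of M values (TMM); FPKM, which also accounts for gene length, is used where genes are set against each other. In bulk tissue, fewer cells of a type and less RNA per cell cannot be told apart.

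Ibsp, Bglap and Acan, matrix genes of bone and cartilage, were at or near 0 in the stimulated libraries and present in each blank library. They were low in most SUI libraries too, with 22, 0 and 0 counts of Bglap, 22, 5 and 0 of Acan, and 88, 23 and 14 of Ibsp. None of them passed the filter on low values through a stimulated library, so nothing is read from them as a set. In FPKM Scx was the most abundant marker in each library, narrowly so in blank replicate 1, where Ibsp was higher in CPM (14.1 against 8.42). Reads of Bop1, on the opposite strand, may add to the Scx level. Every marker but Scx was lower on average in SUI than in blank libraries, with the largest log2 folds for Ibsp (-3.88) and Tnmd (-3.78). The lower Comp rested largely on blank replicate 3. Chad was higher in each stimulated library than in each SUI library, as were 9.52% of all genes tested. The Chad level is uncertain, since Chad overlaps Acsf2 on the opposite strand and the use of strand in counting is not stated. Tnmd was higher on average in stimulated than in SUI libraries, with stimulated replicate 1 at the SUI level. No marker passed the test across all genes (edgeR quasi-likelihood test, Benjamini-Hochberg adjusted p below 0.05) in any comparison, so the folds below are measured differences and not calls. The same test called 0.0123% of the 16256 genes tested in stimulated against SUI, 0% in SUI against blank and 0.00615% in stimulated against blank.

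**Figure D1:**
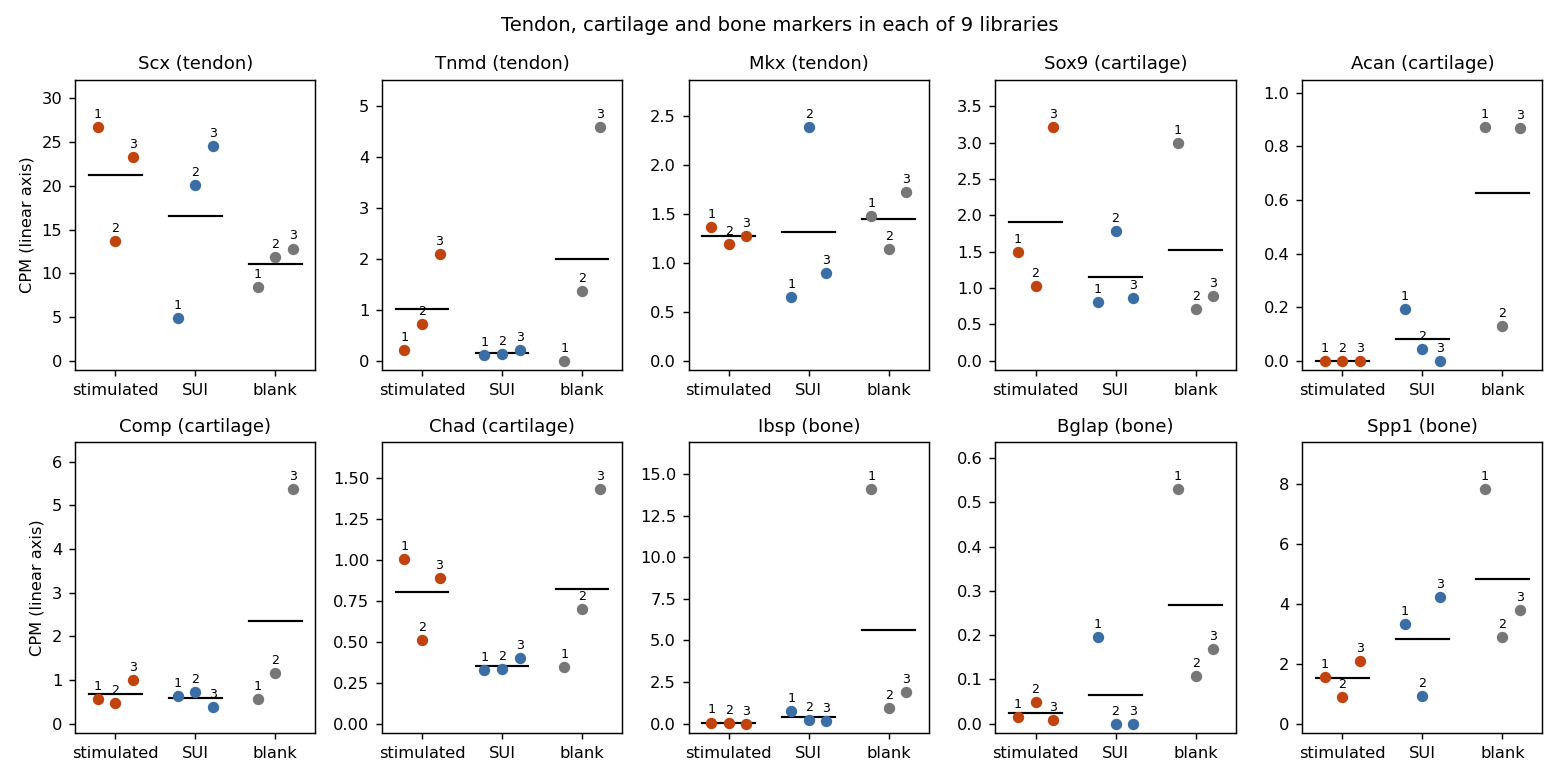
CPM of each marker in each of the 9 libraries, with one panel per gene and a CPM axis of its own. Points are libraries numbered by replicate, in the order stimulated, SUI and blank, and the short lines are group means. Ibsp, Bglap and Acan lie at or near 0 in the stimulated libraries and low in most SUI libraries. The blank libraries of Ibsp, Tnmd and Comp are spread widely.

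Scx, the transcription factor that specifies tendon progenitors, lies on chromosome 7 (108176608 to 108178626, plus strand, in mRatBN7.2, as are all gene positions below). It measured 26.8, 13.7 and 23.2 CPM in the stimulated libraries, 4.87, 20.1 and 24.5 CPM in the SUI libraries and 8.42, 11.8 and 12.8 CPM in the blank libraries. The stimulated libraries all lay above the blank ones, while the SUI libraries reached from below the lowest blank library to near the highest stimulated one. Measured on the log2 scale, the fold change was 0.94 ± 0.50 (SE) in stimulated against blank (edgeR adjusted p = 0.898) and 0.58 ± 0.50 in SUI against blank (adjusted p = 0.726). It was 0.36 ± 0.50 in stimulated against SUI (edgeR adjusted p = 0.921), and -0.07 without SUI replicate 1, the low library. The span of Scx lies within that of Bop1, a ribosome biogenesis gene on the opposite strand. The use of strand in counting is not stated, so reads of these overlapping genes may not be told apart and the Scx level is uncertain to that extent. Bop1 itself had 2306, 2038 and 1974 counts in stimulated, 3849, 2810 and 2419 in SUI, and 398, 2416 and 2322 in blank libraries, where Scx had 3511, 1950 and 2984, then 550, 2221 and 2388, then 318, 1524 and 1300 counts. In counts, Scx and Bop1 were both lowest in blank replicate 1, which also had the lowest library total. In SUI replicate 1 Scx had 550 counts, its lowest after blank replicate 1, and Bop1 had 3849, its highest. The part of Bop1 reads in the Scx counts was not tested.

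Mkx, a homeobox factor that maintains tendon collagen expression, lies on chromosome 17 (55077540 to 55156124, minus strand). It measured 1.37, 1.19 and 1.28 CPM in stimulated libraries, 0.655, 2.40 and 0.894 CPM in SUI libraries and 1.48, 1.15 and 1.73 CPM in blank libraries. The groups overlapped in each comparison, and the stimulated libraries lay closer together than those of any other group. The log2 fold changes were -0.04 ± 0.47 in stimulated against SUI, -0.14 ± 0.47 in SUI against blank and -0.18 ± 0.47 in stimulated against blank (SE; edgeR adjusted p = 0.995, 0.929 and 0.957). The direction of the first 2 turned when single libraries were left out.

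Tnmd, the membrane protein of mature tendon cells, lies on chromosome X (97057137 to 97072634, plus strand). It measured 0.206, 0.729 and 2.09 CPM in stimulated libraries, 0.106, 0.127 and 0.206 CPM in SUI libraries, and 0, 1.38 and 4.60 CPM in blank libraries. In counts these were 27, 104 and 269 in stimulated, 12, 14 and 20 in SUI, and 0, 178 and 466 in blank libraries. Tnmd was uniformly low in the SUI group, and the lowest stimulated library was level with the highest SUI one: it lay just above it in this CPM and below it in FPKM (0.110 against 0.120) and on plain library totals. The blank group held both the highest library and the one with no counts, blank replicate 1, in which 0 counts allow a level of up to 0.0794 CPM (3 counts, for counting error only).

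Tnmd had a log2 fold change of 2.79 ± 1.33 in stimulated against SUI (SE; edgeR adjusted p = 0.647). In SUI against blank it was -3.78 ± 1.37 (edgeR adjusted p = 0.552), and in stimulated against blank -0.997 ± 1.21 (adjusted p = 0.906). The last turned to 0.49 without blank replicate 3, its highest library, and SUI against blank then measured -2.29. Without stimulated replicate 3 stimulated against SUI measured 1.68. With DESeq2 and without blank replicate 1, an alternative chosen after the data were seen, Tnmd passed the threshold in both other comparisons, at 2.78 (adjusted p = 0.0239) in stimulated against SUI and -4.36 (adjusted p = 0.000668) in SUI against blank. Over all alternatives the adjusted p of these 2 comparisons reached up to 1 and 0.773, from the values just given.

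Comp, a pentameric glycoprotein that organises collagen fibrils in cartilage and tendon, lies on chromosome 16 (19047207 to 19055584, minus strand). It measured 0.564, 0.477 and 0.997 CPM in stimulated libraries, 0.629, 0.714 and 0.380 CPM in SUI libraries, and 0.556, 1.15 and 5.37 CPM in blank libraries. The blank mean rested on replicate 3, and blank replicate 1 lay within the range of both other groups. Comp had a log2 fold change of -2.05 ± 0.75 in SUI against blank (SE; edgeR adjusted p = 0.552) and -0.59 without blank replicate 3. It was -1.81 ± 0.74 in stimulated against blank (edgeR adjusted p = 0.898) and -0.35 without blank replicate 3, and 0.24 ± 0.73 in stimulated against SUI (adjusted p = 0.978). DESeq2 without blank replicate 1 gave -2.50 in SUI against blank (adjusted p = 0.0353, against up to 0.773 over all alternatives).

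Chad, a leucine-rich protein through which chondrocytes attach to collagen, lies on chromosome 10 (79511931 to 79515940, plus strand). It measured 1.01, 0.512 and 0.888 CPM in stimulated libraries, 0.328, 0.335 and 0.401 CPM in SUI libraries, and 0.344, 0.697 and 1.43 CPM in blank libraries. Each stimulated library lay above each SUI library, and 1 blank library lay among the SUI ones. Chad had a log2 fold change of 1.18 ± 0.53 in stimulated against SUI (SE; edgeR adjusted p = 0.625), -1.23 ± 0.53 in SUI against blank (adjusted p = 0.594) and -0.06 ± 0.51 in stimulated against blank (adjusted p = 0.988). Without blank replicate 3 the second was -0.58. Chad lies within the span of Acsf2, a fatty acid metabolism gene on the opposite strand with 568 to 2684 counts a library, so the level of Chad, with 13 to 145 counts, is uncertain in the same way as that of Scx. The other 8 markers overlap no other row of the table.

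Sox9, the transcription factor needed for cartilage formation, lies on chromosome 10 (97806485 to 97811994, plus strand). It measured 1.50, 1.02 and 3.22 CPM in stimulated libraries, 0.806, 1.79 and 0.863 CPM in SUI libraries, and 2.99, 0.713 and 0.889 CPM in blank libraries. The groups overlapped throughout, and each had 1 library well above its other 2. The log2 fold changes were 0.73 ± 0.64 in stimulated against SUI, -0.38 ± 0.64 in SUI against blank and 0.35 ± 0.64 in stimulated against blank (SE; edgeR adjusted p = 0.84, 0.848 and 0.93). Without blank replicate 1, SUI against blank turned to 0.54 and stimulated against blank measured 1.24.

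Acan, the large proteoglycan that holds water in cartilage, lies on chromosome 1 (132981582 to 133043627, plus strand). It had 0, 0 and 0 counts in the stimulated libraries, 22, 5 and 0 counts in the SUI libraries, and 33, 17 and 88 counts in the blank libraries. In CPM the SUI libraries measured 0.195, 0.0452 and 0, and the blank libraries 0.874, 0.132 and 0.869. The stimulated libraries were all at 0, and SUI replicate 1 lay above the lowest blank library. Counts were pooled over a group for the fold, with a floor of 3 counts over the stimulated group (0.00746 CPM). Acan was at least 69-fold lower in stimulated than in blank libraries (edgeR adjusted p = 0.898). The bound was 40.2 without blank replicate 3 and 117 without blank replicate 2. It was at least 11.3-fold lower in stimulated than in SUI libraries (edgeR adjusted p = 0.513), and at least 3.22-fold without SUI replicate 1, which held 22 of the 27 SUI counts. In SUI against blank the log2 fold change was -2.92 ± 1.29 (SE; adjusted p = 0.607), and -4.68 without SUI replicate 1. DESeq2 called the lower level in stimulated against blank (adjusted p = 0.00136), and without blank replicate 1 its adjusted p was 0.0647. Over all alternatives the adjusted p reached 1. Acan passed the filter on low values without any stimulated library, so no support is drawn from this call.

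Ibsp, an acidic phosphoprotein of newly mineralising bone, lies on chromosome 14 (5439829 to 5452693, minus strand). It had 8, 7 and 0 counts in stimulated libraries, 88, 23 and 14 counts in SUI libraries, and 532, 117 and 189 counts in blank libraries. In CPM these were 0.0610, 0.0491 and 0 in stimulated, 0.779, 0.208 and 0.144 in SUI, and 14.1, 0.906 and 1.87 in blank libraries. The stimulated libraries lay below all others, in CPM and in FPKM. SUI and blank libraries were apart in this CPM and overlapped in FPKM, where SUI replicate 1 had 0.409 and blank replicate 2 had 0.388, and on plain library totals. Blank replicate 1 was far above the rest. The log2 fold change was -3.32 ± 1.28 in stimulated against SUI (SE; edgeR adjusted p = 0.552), -3.88 ± 1.16 in SUI against blank (adjusted p = 0.504) and -7.19 ± 1.41 in stimulated against blank (adjusted p = 0.898).

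Blank replicate 1, in which Ibsp was highest, was also the library with the largest mitochondrial share, and its part in the result was not tested beyond leaving it out. Without it the log2 fold change was -1.84 in SUI against blank and -5.21 in stimulated against blank, and without SUI replicate 1 it was -2.21 in stimulated against SUI. DESeq2 called Ibsp in stimulated against blank with all libraries (-7.32, adjusted p = 0.00046) and without blank replicate 1 (-5.24, adjusted p = 0.00277). Without blank replicate 1 it also called Ibsp in stimulated against SUI (-3.37, adjusted p = 0.0234). Over all alternatives the adjusted p of both comparisons reached 1. Ibsp passed the filter on low values without any stimulated library, so no support is drawn from these calls.

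Bglap, the calcium-binding protein secreted by mature osteoblasts, lies on chromosome 2 (173838518 to 173839446, minus strand). It had 2, 7 and 1 counts in stimulated libraries, 22, 0 and 0 counts in SUI libraries, and 20, 14 and 17 counts in blank libraries. In CPM these were 0.0153, 0.0491 and 0.00779 in stimulated, 0.195, 0 and 0 in SUI, and 0.530, 0.108 and 0.168 in blank libraries. The stimulated libraries lay below the blank ones, and the SUI group held 1 library at blank levels and 2 with no counts. The log2 fold change was -1.39 ± 1.54 in stimulated against SUI, -1.96 ± 1.47 in SUI against blank and -3.35 ± 1.58 in stimulated against blank (SE; edgeR adjusted p = 0.889, 0.691 and 0.898). Without SUI replicate 1 the first turned to 4.49 and the second measured -7.84, both against or over 2 libraries at 0 and so dependent on the prior count. The count of 1 in stimulated replicate 3 stands beside 0.00575 FPKM, and the count of 2 in stimulated replicate 1 beside 0.0232 FPKM; deposited counts appear to be rounded up.

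Spp1, which binds integrins and mineral and is also a macrophage product, lies on chromosome 14 (5308885 to 5315162, minus strand). It measured 1.56, 0.869 and 2.09 CPM in stimulated libraries, 3.30, 0.904 and 4.20 CPM in SUI libraries, and 7.81, 2.88 and 3.78 CPM in blank libraries. The stimulated libraries lay below the blank ones, and SUI replicate 2 lay near the lowest stimulated library. Spp1 had a log2 fold change of -1.67 ± 0.60 in stimulated against blank (SE; edgeR adjusted p = 0.898), -0.90 ± 0.59 in stimulated against SUI (adjusted p = 0.758) and -0.78 ± 0.58 in SUI against blank (adjusted p = 0.691). Without blank replicate 1 SUI against blank measured -0.24.

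**Figure D2:**
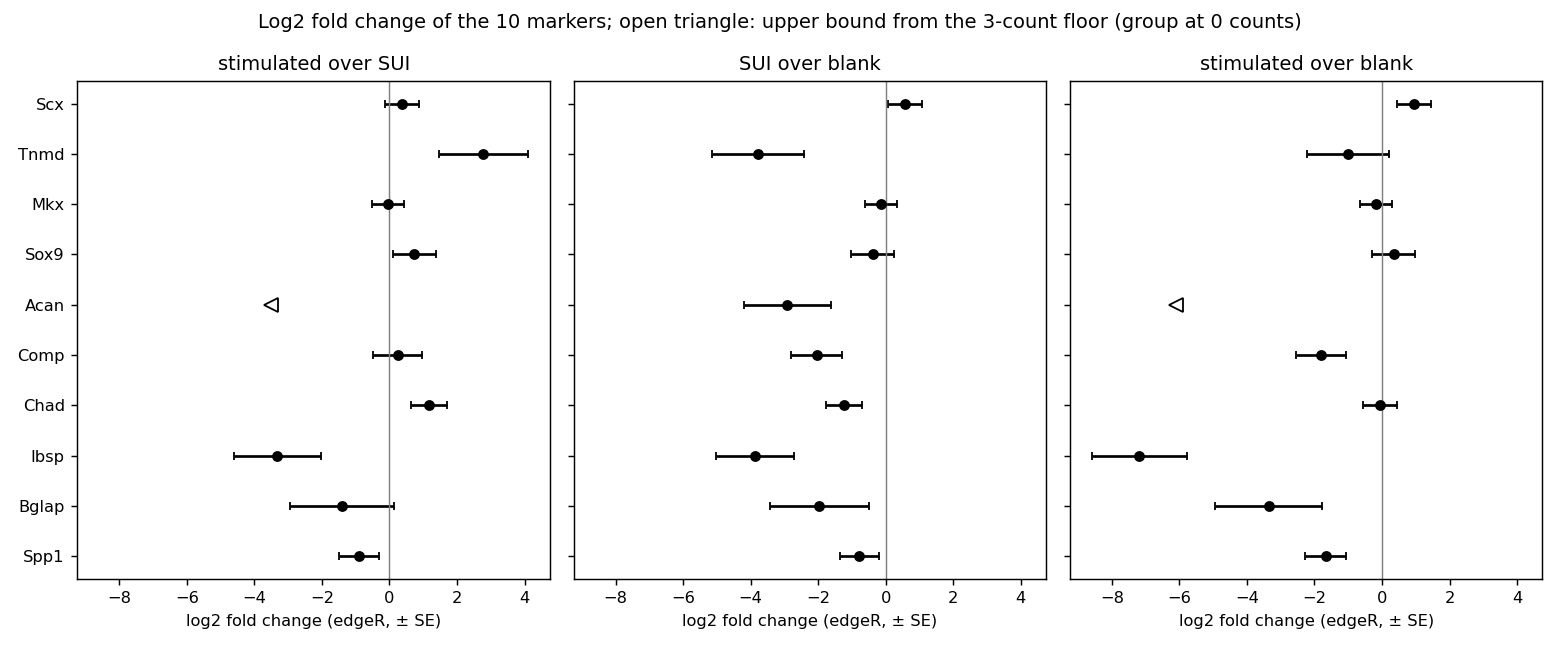
Log2 fold change of each marker from edgeR, with bars of 1 SE, in 3 panels for stimulated over SUI, SUI over blank and stimulated over blank. Open triangles give the bound for Acan, whose stimulated libraries had no counts. Ibsp lies at -3.32, -3.88 and -7.19 in the 3 panels, and Tnmd at 2.79, -3.78 and -0.997.

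Side by side, in stimulated against SUI libraries 5 markers had a positive and 5 a negative log2 fold change, and the median was 0.10, against 0.02 for all genes tested. In TMM-scaled CPM Tnmd and Chad were higher and Ibsp lower with no overlap between the groups, against 9.52% of all genes higher and 9.28% lower. In FPKM and on plain library totals Tnmd overlapped, which left Chad and Ibsp. Unadjusted edgeR p was below 0.05 for 3 of 10 markers, against 8% of all genes. Voom with sample weights called 0 markers in each of the 3 comparisons. DESeq2 with all libraries called 0 markers here, and 1.28% of all genes, and without blank replicate 1 it called 2, Tnmd and Ibsp, and 4.05% of all genes.

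In SUI against blank libraries Scx had a positive log2 fold change and the sign was negative for the other 9. The markers' median was -1.6, against 0.01 for all genes. In TMM-scaled CPM 0 markers were higher and 1, Ibsp, was lower without overlap, against 7.34% of genes higher and 7.77% lower. In FPKM and on plain library totals Ibsp overlapped as well, which left 0. Unadjusted edgeR p was below 0.05 for 4 markers (Tnmd, Ibsp, Comp and Chad), against 8.18% of all genes. DESeq2 called 0 markers and 1.09% of all genes, and without blank replicate 1 it called 2, Tnmd and Comp, and 0.789% of all genes.

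In stimulated against blank libraries 2 markers, Scx and Sox9, had a positive log2 fold change and 8 had one below 0. The markers' median was -1.33, against 0.04 for all genes. Scx was higher and Acan, Ibsp, Bglap and Spp1 were lower without overlap, on all 3 scales, against 7.9% of genes higher and 4.72% lower. Unadjusted edgeR p was below 0.05 for 4 markers (Acan, Ibsp, Comp and Spp1), against 3.77% of all genes. DESeq2 called 2, Acan and Ibsp, and 0.13% of all genes, and without blank replicate 1 it called Ibsp and 0.136% of all genes. The 3 comparisons share libraries in pairs, so a high blank or SUI library enters 2 of them. All 10 markers passed the filter on low values, which asks for more than 0.0903 CPM in at least 3 libraries, but Acan and Bglap passed through the 3 blank libraries and 1 SUI library, and Ibsp through the blank and SUI libraries. These 3 entered through the groups in which they were high, so nothing is read from the counts and medians over the markers. The same holds for the DESeq2 calls of Acan and Ibsp.

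**Figure D3:**
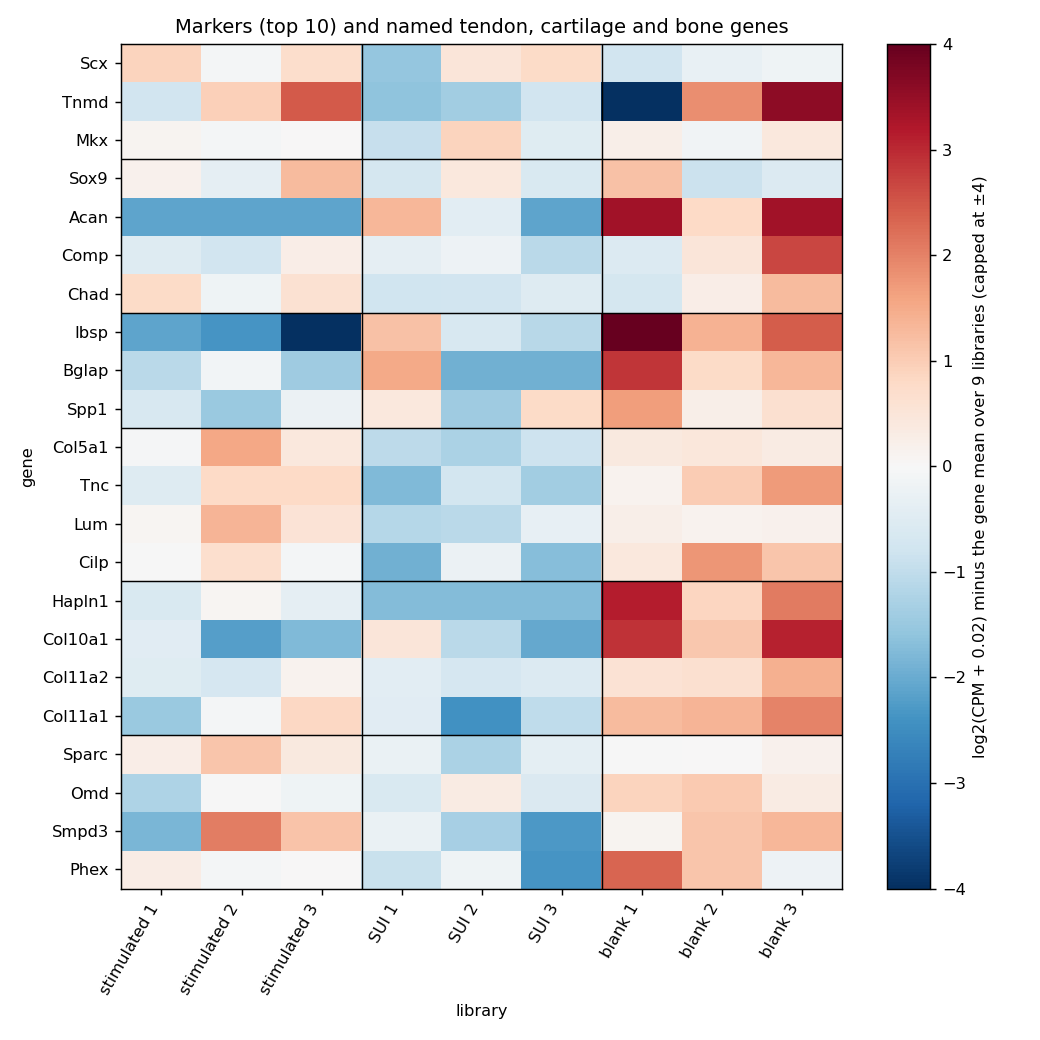
Log2(CPM + 0.02) of the 10 markers (top rows) and of the tendon, cartilage and bone genes named by rule, minus each gene's mean over the 9 libraries and capped at 4 in either direction, with libraries in the order stimulated, SUI and blank. Ibsp, Bglap and Acan are above their means in the 3 blank libraries and in SUI replicate 1, and Tnmd is below its mean in the SUI libraries, in blank replicate 1 and in stimulated replicate 1.

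In FPKM, which allows genes to be compared, Scx was the most abundant marker in each of the 9 libraries, at 4.52 to 17.6 FPKM. In blank replicate 1 Ibsp came close, at 4.18 FPKM. The rank of Scx is uncertain to the extent that reads of Bop1 were counted with it. In stimulated libraries the mean levels ran from Scx (15.0 FPKM) through Spp1 (0.792), Tnmd (0.627), Sox9 (0.385), Chad (0.337), Mkx (0.317), Comp (0.200), Bglap (0.0336) and Ibsp (0.0139) to Acan at 0. Neighbours in that order overlapped between libraries except Scx and Spp1, Mkx and Comp, and Comp and Bglap. In SUI libraries the order was Scx (12.4 FPKM), Spp1 (1.68), Mkx (0.351), Sox9 (0.254), Comp (0.189), Ibsp (0.182), Chad (0.167), Bglap (0.140), Tnmd (0.0926) and Acan (0.0116), and only the first and the last pair of neighbours did not overlap. In blank libraries it was Scx (7.85 FPKM), Spp1 (2.31), Ibsp (1.79), Tnmd (1.30), Comp (0.817), Bglap (0.390), Chad (0.359), Mkx (0.345), Sox9 (0.265) and Acan (0.0673), again with only the first and last pair apart. The blank mean of Ibsp rested on replicate 1; in blank replicates 2 and 3 Tnmd lay above it, at 0.909 against 0.388 and 3.00 against 0.787 FPKM.

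Libraries of one group differed widely for some markers and little for others. Within the blank group the highest library was 15.5 times the lowest for Ibsp, 9.66 times for Comp and 6.63 times for Acan, and 1.52 and 1.51 times for Scx and Mkx. In the stimulated group Tnmd spanned 10.2 times and Mkx 1.15 times. In the SUI group Scx spanned 5.04 times and Chad 1.22 times. Ibsp and Bglap, both bone markers, did not keep 1 proportion: the Ibsp level in FPKM was 0.944, 0.277 and 0 times that of Bglap in stimulated libraries, 0.976 times in SUI replicate 1, and 6.32, 1.94 and 2.56 times in blank libraries. Tnmd was likewise 0.00632, 0.0451 and 0.0765 times Scx in stimulated, 0.018, 0.00498 and 0.0068 times in SUI, and 0, 0.099 and 0.304 times in blank libraries.

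Ibsp and Spp1 belong to a cluster of 5 genes for acidic phosphoproteins of bone and tooth that spans 262.8 kb of chromosome 14, with 124.7 kb between them. Dmp1, an osteocyte matrix protein, had 80, 235 and 216 counts in stimulated, 220, 136 and 98 in SUI, and 151, 277 and 176 in blank libraries. In CPM these were 0.610, 1.65 and 1.68 in stimulated, 1.95, 1.23 and 1.01 in SUI, and 4.00, 2.15 and 1.74 in blank libraries. Each stimulated library thus lay below each blank one in this CPM, by a narrow margin (log2 fold change -0.99 ± 0.48, SE, edgeR adjusted p = 0.898). Mepe, also of osteocytes, had 4, 0 and 21 counts in stimulated, 4, 4 and 0 in SUI, and 9, 4 and 4 in blank libraries. Dspp, of dentine, had 0 counts in all 9.

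A list of 25 tendon genes other than the markers was also followed, of which 24 matched a row and 23 were tested. No gene of it passed edgeR's adjusted threshold in any comparison. In stimulated against SUI 21 log2 fold changes were positive and 2 negative, with a median of 1.31, and in SUI against blank 2 were positive and 21 negative, with a median of -1.15. In stimulated against blank 10 were positive and 13 negative, with a median of -0.05. Libraries did not overlap for 9 genes higher and 0 lower in the first of these comparisons (all genes 9.52% and 9.28%), 0 higher and 14 lower in the second (7.34% and 7.77%), and 0 higher and 1 lower in the last (7.9% and 4.72%). The 3 comparisons share libraries, so the opposite signs of the first 2 are not independent. These signs were not particular to the tendon list. Of 9 fibro-adipogenic and fibroblast markers tested, 8 were positive and 1 negative in stimulated against SUI (median 1.38). In SUI against blank 1 was positive and 8 negative (median -0.67), and in stimulated against blank 9 were positive and 0 negative (median 0.36). Unadjusted edgeR p was below 0.05 for 13 genes in stimulated against SUI (8% of all genes), 15 in SUI against blank (8.18%) and 1 in stimulated against blank (3.77%). DESeq2 called 6, 6 and 0 of these genes past its adjusted threshold in the same comparisons, and 1.28%, 1.09% and 0.13% of all genes: Tnc, Col1a1, Col1a2, Col3a1, Col5a1 and Lum higher in stimulated than in SUI, and Tnc, Col1a1, Col5a1, Kera, Cilp and Angptl7 lower in SUI than in blank libraries, while voom called 0.

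Of the 4 tendon genes with the smallest p, Col5a1, a fibril-nucleating collagen, measured 30.3, 91.9 and 42.4 CPM in stimulated, 15.4, 13.2 and 17.9 CPM in SUI, and 41.4, 43.6 and 39.4 CPM in blank libraries. Tnc, the tension-induced matrix protein tenascin C, measured 3.46, 8.61 and 8.54 CPM in stimulated, 1.44, 2.96 and 1.86 CPM in SUI, and 5.43, 10.0 and 16.3 CPM in blank libraries. In both genes all SUI libraries lay below all others. The log2 fold change in stimulated against SUI was 1.83 ± 0.36 for Col5a1 and 1.72 ± 0.48 for Tnc (SE; edgeR adjusted p = 0.266 and 0.437), and in SUI against blank -1.42 ± 0.36 and -2.35 ± 0.49 (adjusted p = 0.432 and 0.34). Lum, a small proteoglycan of fibrils, had 1.56 ± 0.34 in stimulated against SUI (adjusted p = 0.29) and -0.99 ± 0.34 in SUI against blank (adjusted p = 0.549). Cilp, a matrix protein of cartilage and tendon, had 1.31 ± 0.49 and -2.29 ± 0.50 (adjusted p = 0.535 and 0.37).

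Kera and Thbs4 were named after their values were seen. Kera, a keratan sulphate proteoglycan of tendon and cornea, measured 0.274, 1.21 and 6.03 CPM in stimulated, 0.230, 0.307 and 0 CPM in SUI, and 4.16, 6.10 and 9.66 CPM in blank libraries. SUI and blank libraries did not overlap, and stimulated ones reached from the SUI level into the blank range. Thbs4, a thrombospondin of the myotendinous junction, measured 29.9, 42.6 and 68.5 CPM in stimulated, 10.3, 17.3 and 20.5 CPM in SUI, and 13.0, 42.1 and 81.1 CPM in blank libraries. Its stimulated libraries lay above all SUI ones, and blank replicate 1 was low, as it was for Tnmd. Neither passed with edgeR (adjusted p = 0.501 for Kera and 0.535 for Thbs4 in stimulated against SUI).

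The cartilage list held 25 other genes, all matched, of which 20 were tested and 0 passed edgeR's adjusted threshold. Positive and negative log2 fold changes numbered 9 and 11 in stimulated against SUI (median -0.13), 6 and 14 in SUI against blank (median -0.52), and 6 and 14 in stimulated against blank (median -0.64). Libraries did not overlap for 3 genes higher and 2 lower in stimulated against SUI (all genes 9.52% and 9.28%), 1 higher and 6 lower in SUI against blank (7.34% and 7.77%), and 0 higher and 8 lower in stimulated against blank (7.9% and 4.72%). In these comparisons unadjusted edgeR p was below 0.05 for 1, 7 and 5, against 8%, 8.18% and 3.77% of all genes, and voom called 0. DESeq2 called 1.28%, 1.09% and 0.13% of all genes. DESeq2 called 5 genes in SUI against blank libraries (Col10a1, Col11a1, Col11a2 and Hapln1 lower and the receptor Fgfr3 higher), Col10a1 lower in stimulated than in blank, and 0 in stimulated against SUI. Of the 4 with the smallest p, Col10a1, the collagen of hypertrophic cartilage, measured 0.259, 0.0631 and 0.0934 CPM in stimulated, 0.514, 0.163 and 0.0719 CPM in SUI, and 2.83, 0.782 and 3.18 CPM in blank libraries. Its blank libraries lay above all others, and the log2 fold change was -4.02 ± 0.88 in stimulated against blank and -3.16 ± 0.84 in SUI against blank (SE; edgeR adjusted p = 0.898 and 0.454).

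Hapln1, the link protein that ties aggrecan to hyaluronan, had 3, 7 and 4 counts in stimulated, 0, 0 and 0 in SUI, and 21, 13 and 26 in blank libraries. Aggrecan and its link protein were thus both highest in the blank group, but Hapln1 was at 0 in the SUI group where Acan was at 0 in the stimulated group. Col11a1, a minor fibril collagen, measured 0.511, 1.39 and 2.66 CPM in stimulated, 1.07, 0.262 and 0.719 CPM in SUI, and 3.57, 3.85 and 5.92 CPM in blank libraries. Col11a2, its partner chain, measured 1.21, 1.07 and 1.86 CPM in stimulated, 1.27, 1.06 and 1.16 CPM in SUI, and 2.57, 2.69 and 4.61 CPM in blank libraries. Blank libraries lay above all others for both chains, with log2 fold changes of -2.70 ± 0.65 and -1.50 ± 0.35 in SUI against blank (SE; edgeR adjusted p = 0.411 and 0.392). Col2a1, the main cartilage collagen, named after its values were seen, measured 0.282, 0.512 and 0.218 CPM in stimulated, 2.99, 0.253 and 0 CPM in SUI, and 4.55, 1.47 and 11.6 CPM in blank libraries. Its SUI replicate 1 lay within the blank range, as it did for Acan.

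The bone list held 27 other genes, of which 26 matched, 21 were tested and 0 passed edgeR's adjusted threshold. Tnfsf11, the osteoclast-inducing ligand, had 0 counts in all 9 libraries. Positive and negative log2 fold changes numbered 16 and 5 in stimulated against SUI (median 0.47), 3 and 18 in SUI against blank (median -0.67), and 10 and 11 in stimulated against blank (median -0.03). Libraries did not overlap for 3 higher and 0 lower, 0 higher and 3 lower, and 1 higher and 2 lower of these genes in the same comparisons. Over all genes the shares were 9.52% and 9.28%, 7.34% and 7.77%, and 7.9% and 4.72%. Unadjusted edgeR p was below 0.05 for 2, 3 and 2 of them, against 8%, 8.18% and 3.77% of all genes. Voom called 0, and DESeq2 called Sparc, in stimulated against SUI, where it called 1.28% of all genes.

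Sparc, a collagen-binding protein of bone that fibroblasts make too, measured 458, 831 and 496 CPM in stimulated, 316, 160 and 291 CPM in SUI, and 377, 384 and 431 CPM in blank libraries. Its stimulated libraries were the highest in this CPM and overlapped the others in FPKM and on plain library totals (1.22 ± 0.32 against SUI, SE; edgeR adjusted p = 0.417). Omd, a proteoglycan of osteoblasts, measured 2.38, 5.54 and 5.01 CPM in stimulated, 3.68, 7.11 and 3.80 CPM in SUI, and 10.5, 11.7 and 7.08 CPM in blank libraries, with stimulated below blank throughout (-1.18 ± 0.39, edgeR adjusted p = 0.898). Smpd3, a sphingomyelinase needed for mineralisation, measured 1.47, 21.9 and 11.7 CPM in stimulated, 4.40, 2.10 and 1.07 CPM in SUI, and 5.67, 11.6 and 13.3 CPM in blank libraries. Phex, an osteocyte peptidase, measured 0.107, 0.0771 and 0.0856 CPM in stimulated, 0.0354, 0.0723 and 0 CPM in SUI, and 0.503, 0.201 and 0.0691 CPM in blank libraries. These 4 had the smallest p in the list. Stimulated libraries lay below blank for Omd, and for Smpd3 and Phex they overlapped the blank ones. The osteoblast transcription factors were named after their values were seen. Sp7 had 7, 0 and 0 counts in stimulated, 10, 3 and 0 in SUI, and 19, 4 and 19 in blank libraries. Runx2 measured 0.305 to 0.561 CPM in stimulated, 0.283 to 0.416 CPM in SUI and 0.257 to 0.609 CPM in blank libraries, so its groups overlapped.

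**Figure D4:**
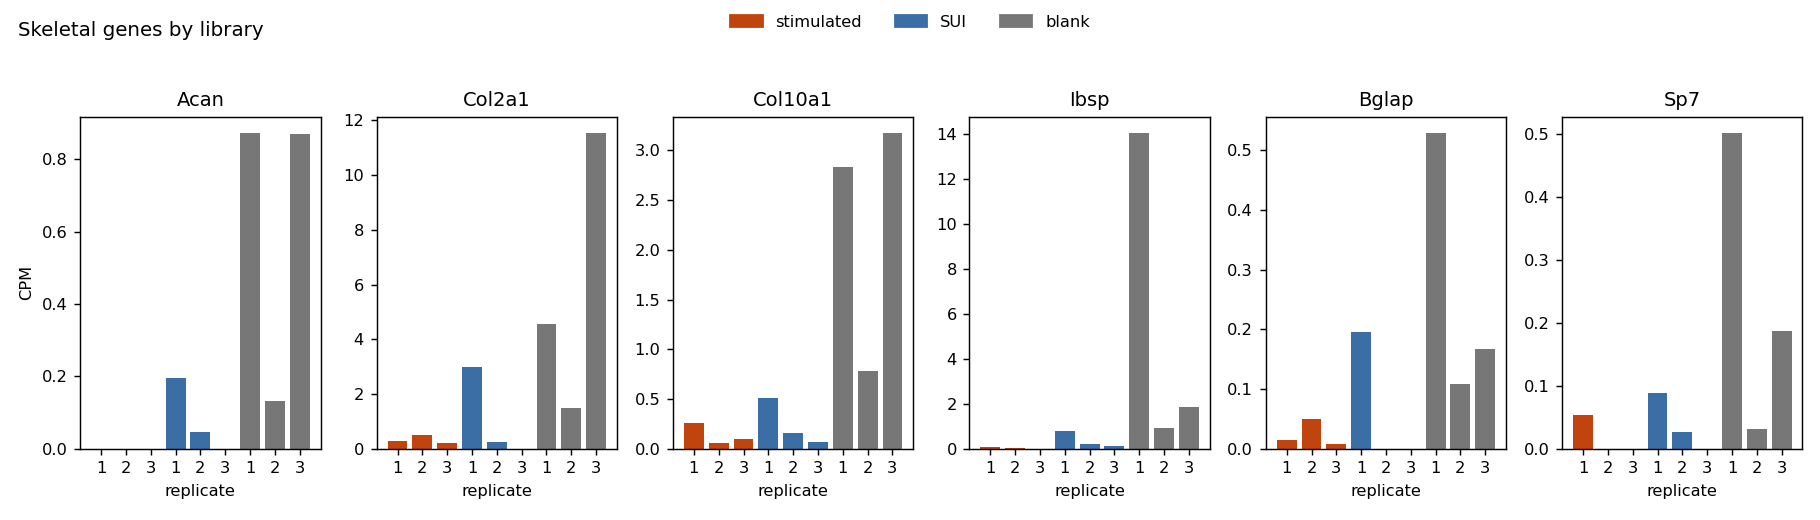
CPM of Acan, Col2a1, Col10a1, Ibsp, Bglap and Sp7 as one bar per library (replicates 1 to 3 of stimulated, SUI and blank, left to right), with a linear axis from 0 for each gene. The highest bar is a blank library for all 6 genes, and among the SUI libraries replicate 1 is the highest for each of them. These 6 were picked and do not stand for skeletal genes as a set. Sox9 was highest in stimulated replicate 3 (3.22 CPM). Alpl, of the bone list, was highest in stimulated replicate 1 (6.97 CPM) and lowest in SUI replicate 1 (0.460 CPM).

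Markers of other cell types were measured beside these genes. Of the osteoclast list 10 of 11 matched, with a summed level of 50.5 to 65.7 CPM in stimulated, 47.1 to 50.2 CPM in SUI and 63.3 to 77.0 CPM in blank libraries, most of it Nfatc1, which other cells express as well. Of its defining members, Atp6v0d2 was at 0 in each stimulated and SUI library and measured 0.265, 0.0542 and 0.0889 CPM in blank libraries. Mmp9, a protease of osteoclasts and neutrophils, measured 0.0610, 0.189 and 0.148 CPM in stimulated, 0.708, 0.0994 and 0.0719 CPM in SUI, and 3.18, 1.08 and 2.47 CPM in blank libraries. These 2, named after their values were seen, were highest in the blank libraries as Ibsp and Acan were. The other tested genes of the list, Ctsk, Acp5, Calcr, Tnfrsf11a, Itgb3 and Nfatc1, overlapped between stimulated and blank libraries. Mean Ctsk was 11.9 CPM in stimulated and 12.1 CPM in blank libraries. Acp5 and Itgb3 lay lower in each SUI library than in each blank one. The part of osteoclast genes in the result was not tested.

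Macrophage markers (13 of 14 matched), measured because macrophages make Spp1, summed to 62.7, 387 and 194 CPM in stimulated, 329, 180 and 110 CPM in SUI, and 143, 214 and 278 CPM in blank libraries. Their sum overlapped between all groups, and their part in the Spp1 values was not tested. Fibro-adipogenic and fibroblast markers (10 of 10) summed to 154 to 484 CPM in stimulated, 128 to 178 CPM in SUI and 202 to 229 CPM in blank libraries, so SUI lay below blank. The summed tendon list ran between 1258 and 4323 CPM in stimulated, 763 and 1185 CPM in SUI and 1892 and 2477 CPM in blank libraries. In the SUI group the tendon sum thus lay below all other libraries and the fibroblast sum below all blank ones, and the part of fibroblast content in the tendon values was not tested. Most of the tendon sum was Col1a1, Col1a2, Col3a1 and Dcn, so it says little about the other tendon genes. In blank replicate 1 these measured 371, 202, 592 and 286 CPM of a sum of 1892 CPM.

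Muscle fibre markers (12 of 12) summed to 157300 to 197700 CPM in stimulated, 110100 to 191000 CPM in SUI and 154000 to 205900 CPM in blank libraries, so the labelled skeletal muscle is present in each library. Smooth muscle markers (8 of 8) summed to 184 to 260 CPM in stimulated, 144 to 194 CPM in SUI and 180 to 538 CPM in blank libraries. Endothelial markers (7 of 7) summed to 293 to 371 CPM in stimulated, 210 to 262 CPM in SUI and 185 to 321 CPM in blank libraries. Adipocyte markers (7 of 7) summed to 9095 to 13070 CPM in stimulated, 5455 to 12280 CPM in SUI and 7728 to 7953 CPM in blank libraries. Nearly all of this sum was Car3, at 7893, 7635 and 7776 CPM in the blank libraries, so it says little about the other adipocyte markers. Adipoq measured 2.1, 9.2 and 33.6 CPM in stimulated, 6.9, 5.3 and 25.1 CPM in SUI, and 9.6, 16.7 and 2.8 CPM in blank libraries. Nerve and Schwann cell markers (7 of 7) summed to 66.6 to 103 CPM in stimulated, 40.5 to 94.7 CPM in SUI and 63.2 to 134 CPM in blank libraries. Urothelial and vaginal epithelial markers (8 of 9) summed to 0.884 to 1.47 CPM in stimulated, 0.796 to 1.30 CPM in SUI and 0.780 to 1.12 CPM in blank libraries, with 2 urothelial plaque genes, Upk2 and Upk3a, at 0 in all libraries. Epithelium was thus near 0 everywhere.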

How the data were processed

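The 9 libraries were made from rat pubococcygeus muscle, 3 per group, and groups and replicate numbers were taken from the sample titles. Alignment and quantification tools named in the submitters' processing notes are Bowtie2 and RSEM 1.3.1, beside DESeq2 1.4.5 and the build mRatBN7.2; a strand setting is not given in these sources. The deposited table of expected counts holds whole numbers only, so no rounding was needed. They look rounded up by the authors, since 358 of 2328 values equal to 1 have less than 0.001 FPKM. The FPKM table deposited by the authors is scaled for gene length and library size, and served to compare genes and for alternatives. Of 30518 rows, 4341 have no symbol.

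Testing used the quasi-likelihood F test of edgeR (version 4.0.16, R 4.3.3, robust) on all 9 libraries in one fit, after filterByExpr (16256 genes) and TMM scaling, with Benjamini-Hochberg adjustment over all genes tested at 0.05. SE is the size of the log2 fold change over the square root of F. CPM uses TMM-scaled totals, and 3 counts equal 0.0210 to 0.0794 CPM, which covers counting error only. Alternatives were DESeq2 size factors, library totals only, no filter, a mean CPM of at least 1, DESeq2 1.42.0, voom with sample weights (limma 3.58.1), a replicate block, fits of the 6 libraries compared, limma on log2(FPKM + 1) and log2(FPKM + 0.1), and leaving out each library. Leaving out blank replicate 1 and SUI replicate 1 together, removing each library's trend with gene length, and DESeq2 without blank replicate 1 were chosen after seeing the data.

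The markers and gene lists were chosen with earlier results of these data known. The naming rule took all 10 markers, up to 4 genes per tendon, cartilage and bone list by smallest p in any comparison, and the 5 genes most alike each marker group; others are said to be named after their values were seen. Promoter motifs were sought as exact letters on both strands of 250 bases before each start. The edgeR and DESeq2 steps were tested on simulated data.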

Additional observations from a re-analysis of the deposited data

How the results depend on the processing

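Counts of Acan and Bglap were low, with at most 88 and 22 a library. With edgeR 0 markers passed in any comparison, whichever library was left out, and leaving out a library changed the median log2 fold change of the markers to between -1.85 and -0.789 in SUI against blank, -0.118 and 0.473 in stimulated against SUI, and -2.04 and -0.188 in stimulated against blank.

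DESeq2 called 2 markers in stimulated against blank; without blank replicate 1 it called 2 in SUI against blank, 2 in stimulated against SUI and 1 in stimulated against blank. The cause was not tested. The median in SUI against blank measured -0.82 with a mean CPM of at least 1 (which tests fewer genes), -0.25 with log2(FPKM + 1), -0.61 with log2(FPKM + 0.1) and -2.05 without both blank replicate 1 and SUI replicate 1. In stimulated against blank it measured -0.99 with a mean CPM of at least 1, -0.73 with voom, -0.22 with log2(FPKM + 1) and -0.50 with log2(FPKM + 0.1). In stimulated against SUI it measured 0.46 with voom. A pseudocount shrinks the differences of low genes by construction. With library totals only, the median of all genes moved to 0.194, -0.107 and 0.0884 in SUI against blank, stimulated against SUI and stimulated against blank.

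Directions that turned were those of small or uneven differences, and the cause was not tested. In SUI against blank, without both libraries Mkx measured 0.20 and Sox9 0.73, and Sox9 measured 0.55 with voom and 0.53 with DESeq2 without blank replicate 1. In stimulated against SUI, without both libraries Scx measured -0.071 and Bglap 4.61, Bglap measured 0.998 with voom, and Mkx 0.0016 with log2(FPKM + 0.1). In stimulated against blank Chad measured 0.10 with log2(FPKM + 0.1). Leaving out single libraries, or both of these, turned Mkx (-0.92 to 0.20) and Sox9 (-0.88 to 0.73) in SUI against blank; Scx (-0.071 to 0.77), Mkx (-0.36 to 0.72), Comp (-0.14 to 0.44) and Bglap (-2.39 to 4.61) in stimulated against SUI; and Tnmd (-2.10 to 0.49), Sox9 (-0.25 to 1.26) and Chad (-0.43 to 0.60) in stimulated against blank.

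Same-numbered libraries of different groups had deviations that correlated at -0.218 to 0.113, with 1 of 9 pairs over 0.1, and 2 of 9 correlated best with their own number, so the numbers were not taken as pairs. With the replicate block Mkx turned to 0.086 and Comp to -0.0053 in stimulated against SUI, Chad turned to 0.053 in stimulated against blank, and 0 markers passed.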

Other observations

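Each marker group was also set against the other genes of the table, and the 5 of 11260 genes with the most alike profile over the 9 libraries are given as a description. The measure is Pearson's r between a gene's log2 CPM and the mean log2 CPM of the group, and the libraries share 3 groups and differ in depth and RNA composition. The tendon markers were most alike Myoc (r = 0.966, Spearman's rho = 0.833, n = 9), a secreted glycoprotein best known from the eye, then Ano8 (0.964), Extl3 (0.945), Tmem201 (0.938) and Thbs4 (0.936). Without blank replicate 1 and SUI replicate 1, the outermost libraries, r was between 0.754 and 0.851 for the first 4 and was 0.942 for Thbs4. Myoc measured 42.6, 43.2 and 75.5 CPM in stimulated, 22.3, 45.0 and 48.5 CPM in SUI, and 21.0, 59.1 and 64.5 CPM in blank libraries.

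The cartilage markers were most alike Ptpn4 (r = 0.946), Col11a2 (0.91), Fuca2 (0.907), Celf2 (0.859) and Strn3 (0.858), of which Col11a2 is a cartilage collagen chain. The bone markers were most alike Asb13 (0.941), Noc3l (0.94), Zfp449 (0.929), Zfyve19 (0.92) and Zranb2 (0.918), none of them on the bone list. Asb13 measured 9.19, 8.19 and 7.71 CPM in stimulated, 13.9, 8.41 and 10.2 CPM in SUI, and 16.8, 10.3 and 11.5 CPM in blank libraries.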
